A study of Homo sapiens with 2 samples.

Results

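The 9 luminal breast lineage genes ESR1, PGR, GATA3, FOXA1, ERBB2, ERBB3, SPDEF, XBP1 and TFF1 were examined for open chromatin in SUM159, an established triple negative breast cancer line of the claudin-low type. The genes were chosen by name, as 9 of the 19970 protein-coding genes that GENCODE release 44 places on the autosomes and chromosome X, by a rule that uses no measured value, although earlier results of these data were known at the time. Each gene was given a window that joined its gene body with 50 kb either side of each of its annotated transcript starts. These windows held 47 of the 74757 ATAC-seq peaks of the No gRNA library and 52 of the 75217 peaks of the All gRNA library. ATAC-seq marks open chromatin by the places where the transposase Tn5 can insert adapters.

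Both cell populations carried the lentiviral vector pLV-KRAB, which expresses dCas9-KRAB, a cleavage-dead Cas9 joined to the KRAB repressor domain. The No gRNA cells had received an empty vector in place of guides, and the All gRNA cells had received 4 guides against the promoter of ZEB1, a repressor that drives epithelial-mesenchymal transition. There was 1 library in each group, so no test between conditions was possible and each comparison is one of libraries. An open promoter does not measure RNA, and no RNA was analysed here.

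Luminal cells of the breast line the milk ducts, and part of them express the oestrogen receptor, which is encoded by ESR1. The pioneer factor FOXA1 and the zinc finger factor GATA3 act with this receptor at enhancers in luminal breast cancer. Triple negative tumours are defined by the absence of oestrogen and progesterone receptors and of ERBB2 amplification, and claudin-low tumours in addition have low levels of tight junction and other epithelial adhesion genes.

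The sequences on which the results turn are given first. They are the 200 bases around the summits of the strongest intronic peak of ESR1 and the peak downstream of FOXA1. The same length is given for the No gRNA peak in a PGR intron, 2051 bp from an internal start. For XBP1, ERBB2 and ERBB3 the peaks are those nearest the starts that lay clear of untranslated regions. For TFF1 it is the All gRNA peak upstream of the gene. All are reference bases of hg38, written 5′ to 3′ on the strand of the gene. Capitals mark matches, on either strand, to the GATA motif AGATAA, the forkhead motif TGTTTAC, the E-box CAGGTG that ZEB1 can bind, and the AP-1 motif TGANTCA.
ESR1, chr6:152095320-152095519, plus strand: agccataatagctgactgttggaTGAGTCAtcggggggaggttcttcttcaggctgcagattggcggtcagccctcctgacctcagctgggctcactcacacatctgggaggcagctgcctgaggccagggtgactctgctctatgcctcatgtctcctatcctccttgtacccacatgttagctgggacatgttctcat
PGR, chr11:101049319-101049518, minus strand: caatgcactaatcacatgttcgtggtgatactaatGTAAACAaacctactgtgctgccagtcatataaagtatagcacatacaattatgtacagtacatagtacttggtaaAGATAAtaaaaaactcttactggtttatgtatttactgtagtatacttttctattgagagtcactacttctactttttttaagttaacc
FOXA1, chr14:37580363-37580562, minus strand: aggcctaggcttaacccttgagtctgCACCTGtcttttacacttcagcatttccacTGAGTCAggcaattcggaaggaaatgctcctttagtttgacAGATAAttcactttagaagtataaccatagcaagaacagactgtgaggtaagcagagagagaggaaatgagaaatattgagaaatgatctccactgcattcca
XBP1, chr22:28800617-28800816, minus strand: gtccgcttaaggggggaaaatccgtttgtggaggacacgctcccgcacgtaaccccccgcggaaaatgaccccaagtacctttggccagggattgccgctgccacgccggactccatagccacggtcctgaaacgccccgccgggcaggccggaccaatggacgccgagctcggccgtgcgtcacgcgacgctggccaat
ERBB2, chr17:39700324-39700523, plus strand: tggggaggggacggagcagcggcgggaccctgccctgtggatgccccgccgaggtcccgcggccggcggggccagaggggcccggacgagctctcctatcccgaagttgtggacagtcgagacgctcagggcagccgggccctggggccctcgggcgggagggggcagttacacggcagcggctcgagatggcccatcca
ERBB3, chr12:56079373-56079572, plus strand: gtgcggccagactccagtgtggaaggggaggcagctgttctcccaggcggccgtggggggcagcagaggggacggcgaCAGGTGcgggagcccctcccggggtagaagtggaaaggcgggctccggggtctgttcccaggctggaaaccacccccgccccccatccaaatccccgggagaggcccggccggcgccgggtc
TFF1, chr21:42366776-42366975, minus strand: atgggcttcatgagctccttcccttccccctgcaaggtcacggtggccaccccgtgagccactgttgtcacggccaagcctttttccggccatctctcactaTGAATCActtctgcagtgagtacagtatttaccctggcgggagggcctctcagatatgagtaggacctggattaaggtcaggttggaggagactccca

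The ESR1 and TFF1 stretches each held a match to the AP-1 pattern, TGAGTCA in ESR1 and TGAATCA in TFF1, since the pattern allows any middle base. The PGR stretch held a forkhead and a GATA match. The FOXA1 stretch held an E-box, an AP-1 and a GATA match, and the ERBB3 stretch held an E-box. The XBP1 and ERBB2 stretches held none of these motifs. The matches are descriptions of the letters and not of bound factors.

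The height of a peak is given as its summit pileup, the number of 200 bp read windows that cover the summit, which was solved from the fold and the −log10 p of each peak. In each library 100% of peaks had a whole-number pileup that returned the deposited −log10 p within 0.005. The depth of the All gRNA library was 0.743 times that of the No gRNA library, with about 6.54e+06 against 8.80e+06 read ends. Ratios below are All gRNA over No gRNA pileups divided by this factor, with exact 95% intervals (Clopper-Pearson) that cover counting error only. At the lowest background, a pileup of 5 was enough for a peak in the No gRNA library and a pileup of 4 in the All gRNA library. The strength of a peak within a library is its −log10 q, with a median of 13.7 over all No gRNA peaks and 10.1 over all All gRNA peaks.

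Which luminal promoters were open was asked first. A promoter was counted as open when a peak overlapped 4000 bp either side of any transcript start of the gene. In the No gRNA library 7 of the 9 genes had such a peak, where 74.3% of all protein-coding genes did. In the All gRNA library it was 6 of 9 genes, against a background of 73.9%. The 9 genes were therefore open about as often as genes in general.

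The 9 genes fell into distinct levels all the same. GATA3, FOXA1, ERBB2, ERBB3 and XBP1 had strong promoter peaks in both libraries. For ERBB2 the strongest peak lay at an upstream start, also near a start of PGAP3. At the main start of ERBB2 the pileup was 34 in the No gRNA library, with All gRNA peaks of 8 and 7. For GATA3 it also lay at an upstream start, and the peak over the main start had pileups of 26 and 17. ESR1 and PGR had a faint peak in the No gRNA library only, TFF1 a faint peak in the All gRNA library only, and SPDEF none in either. In the No gRNA library the strongest promoter pileups were 103 for XBP1, 85 for GATA3, 71 for ERBB2, 70 for ERBB3, 64 for FOXA1, 9 for PGR and 8 for ESR1. No neighbours in this order differed beyond their counting intervals except FOXA1 and PGR, with a PGR over FOXA1 ratio of 0.141 (0.0615 to 0.284). The ends of the upper group had a FOXA1 over XBP1 ratio of 0.621 (0.448 to 0.857). They were picked as the highest and lowest of the group, which favours an interval that excludes 1.

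In the All gRNA library the order was GATA3 with 59, ERBB3 with 54, XBP1 with 47, FOXA1 with 45, ERBB2 with 32 and TFF1 with 7. The only neighbours that differed beyond their intervals were ERBB2 and TFF1, with a TFF1 over ERBB2 ratio of 0.219 (0.0815 to 0.505). The ends of the upper group, picked in the same way, had an ERBB2 over GATA3 ratio of 0.542 (0.341 to 0.848). Over all genes with a promoter peak the median pileup was 61 in the No gRNA and 38 in the All gRNA library. The 5 strongly open luminal promoters were thus near the middle of open promoters, while those of ESR1, PGR and TFF1 were near the bottom. By −log10 q, 1.63% of open genes ranked below ESR1 and 3.18% below PGR in the No gRNA library, and 3.29% ranked below TFF1 in the All gRNA library.

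The hormone receptors came first among the genes. ESR1 (ENSG00000091831.25, chr6:151656691-152129619, plus strand), which encodes oestrogen receptor alpha, had the largest window, with 14 No gRNA and 13 All gRNA peaks. Its density of 2.68 and 2.49 peaks per 100 kb was nevertheless below the gene medians of 3.62 and 3.55. The main start, that of the canonical transcript, had no peak at it in either library. The No gRNA promoter peak at chr6:151805644-151805843 had a pileup of 8 and a −log10 q of 5.23. Its summit lay in an annotated untranslated region 1905 bp upstream of the main start and 1346 bp from the nearest GENCODE start. A separate set of promoter sequences places an ESR1 start at chr6:151805705, within this peak.

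The open chromatin of ESR1 lay inside the gene. The strongest peak, at chr6:152095119-152095631, lay in an intron 287738 bp downstream of the main start. It had a pileup of 94 in the No gRNA and 77 in the All gRNA library, at a ratio of 1.10 (0.805 to 1.51). This intronic peak was stronger than 93.6% of the peaks of the No gRNA list and 96.1% of those of the All gRNA list. It stood within a cluster of peaks in the last part of the gene, which also held peaks at 278235, 282591 and 292798 bp from the main start.

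The 3 weaker shared peaks of that cluster were each higher at matched depth in the All gRNA library, although no interval excluded 1. Their pileups were 18 and 21 at the first, 16 and 21 at the second, and 12 and 17 at the last, at ratios of 1.57 (0.796 to 3.13), 1.77 (0.878 to 3.62) and 1.91 (0.858 to 4.37). Over the 10 ESR1 peaks with a single partner in the other library the median ratio was 1.04, with 8 above 1. The 2 below 1 lay upstream of the main start, with pileups of 36 and 18 at a ratio of 0.673 (0.36 to 1.22) and of 27 and 13 at a ratio of 0.648 (0.307 to 1.30). None of these differences exceeded counting error.

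The gene also held 2 of the stronger No gRNA peaks without an All gRNA partner, both in introns. The higher had a pileup of 30 and a −log10 q of 13.8 at chr6:152097231-152097512, beside the strongest peak of the gene. The other had a pileup of 13 and a −log10 q of 11.3 at chr6:151675881-151676135. A partner at the same level at All gRNA depth would have had pileups of about 22.3 and 9.66.

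PGR (ENSG00000082175.16, chr11:101029624-101129813, minus strand), which encodes the progesterone receptor and is a classical oestrogen receptor target, had 3 No gRNA and 4 All gRNA peaks in its window. Neither library had a peak within 4000 bp of its main start. The No gRNA promoter peak, at chr11:101049307-101049526, had a pileup of 9 and lay in an intron 80394 bp inside the gene and 2051 bp from an internal start. An intronic peak 37885 bp from the main start had pileups of 9 and 16, at a ratio of 2.39 (0.995 to 6.14), the highest ratio in all 9 windows. Its interval just included 1.

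The other PGR peak found in both libraries lay 46871 bp upstream in an intron of PGR-AS1, with pileups of 14 and 5 at a ratio of 0.481 (0.135 to 1.41). The All gRNA library had in addition a peak of pileup 9 in the gene and one of pileup 8 in the PGR-AS1 intron 6459 bp upstream. All peaks of the PGR window were thus low, between 5 and 16.

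The lineage transcription factors were more open. GATA3 (ENSG00000107485.18, chr10:8045378-8075198, plus strand) specifies luminal cells. Its main promoter peak, at chr10:8053415-8054267, was 853 bp wide, wider than 95.2% of No gRNA peaks, and also lay within 1000 bp of a start of the antisense gene GATA3-AS1. It had pileups of 85 and 59, at a ratio of 0.934 (0.658 to 1.32). A second promoter peak, at chr10:8054437-8054800, lay over the main start with pileups of 26 and 17, at a ratio of 0.880 (0.448 to 1.68). Away from its promoter the GATA3 window held a single weak peak, an intronic No gRNA peak of pileup 9.

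FOXA1 (ENSG00000129514.8, chr14:37589552-37596059, minus strand) encodes a pioneer factor that binds closed chromatin and makes it accessible to the oestrogen receptor. Its promoter peak, at chr14:37594335-37595362, was the widest of the 9 windows at 1028 bp and was wider than 98.3% of No gRNA peaks. The pileups were 64 and 45, at a ratio of 0.946 (0.631 to 1.41). Starts of TTC6, a neighbouring gene, lay within 1000 bp of this summit. A second strong site lay between genes 14786 bp downstream of the main start, at chr14:37580162-37580692, with pileups of 38 and 43 and a ratio of 1.52 (0.961 to 2.42).

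The FOXA1 downstream site was the strongest peak of the window in the All gRNA library by −log10 q, at 43.8 against 37.0 for the promoter. In the No gRNA library the order was the opposite, at 35.2 for the site and 54.5 for the promoter. The remaining shared peak of the window lay upstream in an intron of TTC6, with pileups of 20 and 13 at a ratio of 0.875 (0.40 to 1.85).

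SPDEF (ENSG00000124664.11, chr6:34537802-34556333, minus strand), an ETS factor of luminal and secretory cells, had no peak within 4000 bp of its starts in either library. An intron of the gene held a weak shared peak, at chr6:34543581-34544022, with pileups of 14 and 10 at a ratio of 0.961 (0.382 to 2.33). The strongest peak of its window was in a coding exon of the neighbour PACSIN1, with pileups of 63 and 43 at a ratio of 0.918 (0.608 to 1.38). A No gRNA peak without a partner, at chr6:34595440-34595661 in an intron of ILRUN, had a pileup of 13 and a −log10 q of 11.3.

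XBP1 (ENSG00000100219.17, chr22:28794555-28800597, minus strand) encodes a factor of the unfolded protein response that is abundant in luminal tumours. It had the strongest promoter peak of the 9 genes in the No gRNA library, at chr22:28800481-28801045, which also lay at a start of the gene ENSG00000226471. The pileups were 103 and 47, at a ratio of 0.614 (0.425 to 0.875). The interval excluded 1. Among shared peaks with a single partner, intervals excluded 1 for 2 of the 37 in all windows, this peak included. Over all 48041 such peaks, 5893 had an interval that excluded 1. The interval of this XBP1 peak includes 0.821, the median ratio of all peaks with a No gRNA pileup of 60 or more. A second promoter peak in an intron had pileups of 33 and 19, at a ratio of 0.775 (0.416 to 1.40). The 4 shared peaks of the XBP1 window were all below 1, with a median ratio of 0.662. The peak at the start of the neighbour CCDC117 was among them, with pileups of 63 and 32 at a ratio of 0.684 (0.432 to 1.06). The remaining XBP1 promoter peak, at chr22:28793282-28793531, was found only in the No gRNA library, with a pileup of 7.

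The receptor tyrosine kinases followed. ERBB2 (ENSG00000141736.14, chr17:39687914-39730426, plus strand) encodes HER2 and had 6 No gRNA and 9 All gRNA peaks in a gene-dense window. The strongest of its promoter peaks, at chr17:39687808-39688318, had its summit 90 bp from an upstream start of the gene and also within 1000 bp of a start of PGAP3. Its pileups of 71 and 32 gave a ratio of 0.607 (0.387 to 0.933). This interval also includes 0.821, the median ratio of all peaks with a No gRNA pileup of 60 or more. The peak at the main start of ERBB2, at chr17:39699857-39700611, had a No gRNA pileup of 34.

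In the All gRNA library the 755 bp peak at the main start of ERBB2 was matched by 2 smaller peaks with pileups of 8 and 7. Against the higher of them the ratio was 0.317 (0.127 to 0.697), and against the other it was 0.277 (0.104 to 0.635), the lowest ratios of the 9 windows. The intervals of both ERBB2 starts excluded 1 when scaled by depth, but under scaling by the median ratio of all peaks that of the upstream start reached 1.005. The peak near the end of the gene, at chr17:39730290-39730928, which lay within 1000 bp of a start of MIEN1, had pileups of 33 and 25 at a ratio of 1.02 (0.581 to 1.77). The strongest peak of the ERBB2 window was intergenic, 54528 bp downstream, with pileups of 103 and 68 at a ratio of 0.888 (0.644 to 1.22).

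ERBB3 (ENSG00000065361.17, chr12:56076799-56103505, plus strand) encodes HER3, the partner of HER2. It had the densest window, with 8 and 9 peaks or 6.50 and 7.31 per 100 kb, more than 82.4% and 89.1% of genes. Its main promoter had a pair of shared peaks. The upstream one, at chr12:56079069-56079701, had pileups of 70 and 54 at a ratio of 1.04 (0.714 to 1.5), and the one over the main start, at chr12:56079780-56080271, had pileups of 70 and 38 at a ratio of 0.731 (0.479 to 1.10). A further promoter peak, at chr12:56072767-56072966, was found only in the All gRNA library, with a pileup of 6.

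Much of the density around ERBB3 came from other genes. The peak at the start of PA2G4 had pileups of 221 and 134, at a ratio of 0.816 (0.653 to 1.02), and was the strongest of the 9 windows. Of the 47 No gRNA peaks of all windows, 6 lay within 1000 bp of the start of another gene and outside the promoter of the luminal gene, with a median pileup of 99.5, against 34 for the 13 peaks in the promoters of the luminal genes. In the All gRNA library the medians were 32 for 9 peaks at other starts and 25 for 13 promoter peaks. The groups are defined unlike each other, since promoter peaks were counted within 4000 bp of a start. Some promoter peaks also lay within 1000 bp of a start of another gene, such as GATA3-AS1 and PGAP3. The strongest No gRNA peak without a partner in any window was also near ERBB3, in an untranslated region of ZC3H10 at chr12:56126256-56126522, with a pileup of 49 and a −log10 q of 21.0.

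TFF1 (ENSG00000160182.3, chr21:42362282-42366535, minus strand), a secreted trefoil peptide and a standard oestrogen target, had the fewest peaks in the No gRNA library. The No gRNA library had a single peak in its window, in an intron of UBASH3A 48762 bp upstream, which was shared with pileups of 17 and 13 at a ratio of 1.03 (0.460 to 2.25). The All gRNA library had 3 more, with pileups of 7, 6 and 8 at 341, 4634 and 15050 bp upstream of the start. The nearest of them, at chr21:42366788-42366989, had a −log10 q of 4.97. The density was 1.00 and 4.00 peaks per 100 kb, which placed TFF1 above 12.2% and 57.9% of genes in the No gRNA and All gRNA lists. These are peaks close to the calling limit, and at No gRNA depth the nearest would have had a pileup of about 9.42.

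**Figure D1:**
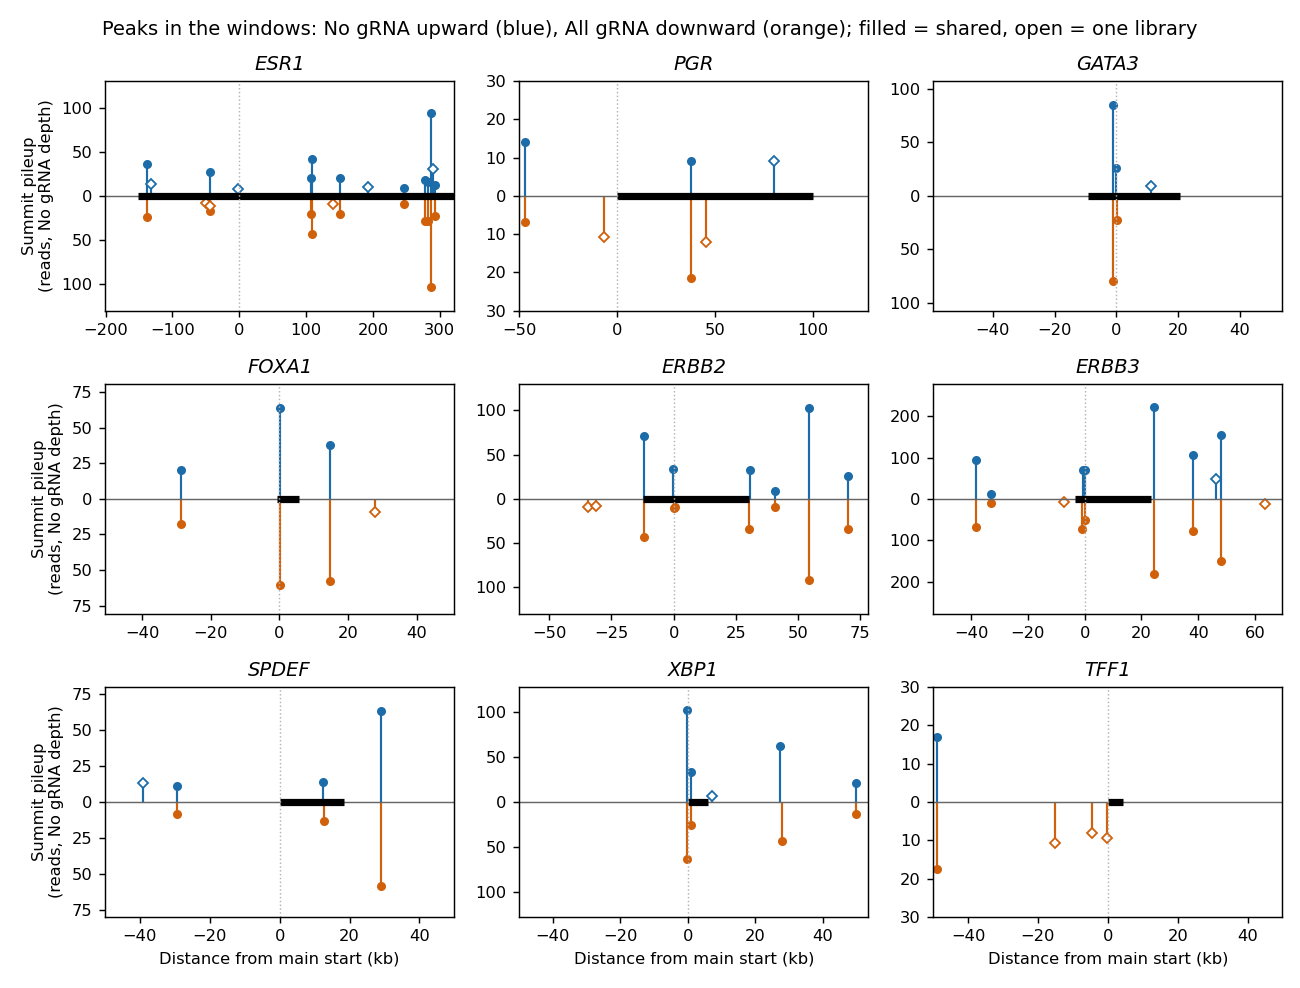
Peaks in the 9 windows by distance of the summit from the main start in kb, positive in the direction of transcription, with No gRNA pileups drawn upward and All gRNA pileups at No gRNA depth downward. Black bars are gene bodies, filled points shared peaks and open points peaks of 1 library. ESR1 is open within the gene, GATA3 mainly at the promoter, and the TFF1 window holds 1 No gRNA peak and 4 All gRNA peaks.

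The libraries were then compared over all 9 windows. By an overlap of at least 1 bp, 38 of the 47 No gRNA peaks (80.9%, 66.7 to 90.9%) had a partner, where 75.3% of all No gRNA peaks did. Of the 52 All gRNA peaks 39 (75%, 61.1 to 86.0%) had one, where 76.2% of all All gRNA peaks did. Both shares included the background in their intervals. Covered length was 20698 bp in the No gRNA and 19468 bp in the All gRNA library.

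For 3 of the 9 genes the only promoter peak was in 1 library. A promoter peak in the No gRNA library only was found for ESR1 and PGR, where 2.92% of all protein-coding genes had one. A promoter peak in the All gRNA library only was found for TFF1, where 2.56% of all genes had one. All 3 peaks were weak, with pileups of 7 to 9. The 9 No gRNA peaks without a partner had pileups of 7 to 49 and the 13 All gRNA peaks without a partner had pileups of 6 to 10.

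Of the 37 shared peaks with a single partner on both sides, 0 were at least 2-fold lower in the All gRNA library with an interval that excluded 1, where 3.27% of all such peaks were. Likewise 0 were at least 2-fold higher, against a background of 2.44%. At 1.5-fold, 2 of 37 were lower, the peaks at the XBP1 promoter and at the upstream start of ERBB2, against 7.17% of all peaks, and 0 were higher against 3.30%. Where each shared No gRNA peak was set against its strongest partner, 1 of 38 was at least 2-fold lower, the main start of ERBB2, against 3.25%, and 0 were higher against 2.89%. These counts were at or below the background.

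The median ratio over the 37 peaks was 0.934, with 22 below and 15 above 1, beside a median of 0.928 over all 48041 such peaks. Ratios depended on peak height over the whole lists. The median ratio of all peaks was 1.23 for No gRNA pileups below 15 and 0.821 for pileups of 60 or more. The classes are set by the No gRNA pileup, which is also the denominator of the ratio, so part of this trend is built in. The 14 luminal peaks of the strongest class, which held the XBP1 promoter and the upstream start of ERBB2, had a median of 0.852. The 5 luminal peaks with pileups of 30 to below 60 had a median of 1.02, beside 0.838 over all peaks of that class. For pileups of 15 to below 30 the 10 luminal peaks had a median of 1.01, beside 0.928. Below 15 the order was the opposite, with 1.00 for the 8 luminal peaks beside 1.23.

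Scaled by the median ratio of all peaks in place of the depth, the XBP1 promoter remained below 1, at 0.662 (0.458 to 0.943), and so did the main start of ERBB2, at 0.341 (0.136 to 0.751). The upstream start of ERBB2, at 0.654 (0.417 to 1.005), no longer excluded 1, and the PGR intronic peak moved past it, at 2.58 (1.07 to 6.62).

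Other luminal genes were read in the same way. Of 36 further genes of the luminal programme, 34 (94.4%) had a promoter peak in No gRNA cells and 32 (88.9%) in All gRNA cells, beside 74.3% and 73.9% of all protein-coding genes. These genes were chosen as the 9 were, with earlier results known. The transcription factor genes TBX3 and TFAP2A were among the most open of them, with pileups of 267 and 162 and of 215 and 128. The luminal keratin genes KRT8, KRT18 and KRT19 had pileups of 66 and 33, of 50 and 26, and of 25 and 13. TFAP2C, a further factor of the luminal programme, had 46 in the No gRNA and 61 in the All gRNA library.

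As with ESR1 and PGR, the promoter of TFAP2B had a faint peak in the No gRNA library only, with a pileup of 7. AGR3 and ANKRD30A had none in either library. GREB1, with 23 and 15, and TFF3, with 13 and 7, are oestrogen targets and were open at low levels in both libraries. So was ELF5, a factor of luminal progenitors, with 17 and 7. GREB1 and TFF3 were picked after their values were seen and do not stand for oestrogen targets in general. Other genes of the list, given below, were more open.

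The labelled cell type was checked on markers. All 10 mesenchymal genes were open in both libraries. SNAI2, at 116 and 72, and VIM (vimentin), at 102 and 62, were the highest of them. The median pileups of the mesenchymal list were 38 and 24, below the medians of 61 and 38 over all genes with a promoter peak. Of 10 epithelial genes that are low in claudin-low lines, 5 were open in the No gRNA and 3 in the All gRNA library, with 0 peaks at CLDN3, ESRP1, GRHL2, OVOL1 and RAB25. CDH1 and CLDN4, with No gRNA pileups of 7 and 12, had no All gRNA peak. Of 10 basal genes 7 were open in both libraries. The promoter of ZEB1, the targeted gene, had pileups of 27 and 10. The pileups of the marker genes are likewise before scaling for depth.

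Base composition of the promoters was set beside openness. The CpG ratio, the observed over the expected number of CpG dinucleotides in 1001 bp centred on the main start, was highest for XBP1 at 0.898, FOXA1 at 0.865 and GATA3 at 0.855. ESR1 had 0.763, ERBB3 0.677, PGR 0.616 and ERBB2 0.615. SPDEF and TFF1 were lowest, at 0.191 and 0.371. All 7 genes with a ratio of at least 0.6 had a promoter peak in the No gRNA library, where 89.6% of all such genes did, and 5 of the 7 had one in the All gRNA library, where 88.8% did. Of the 2 genes below 0.6, 0 had a peak in the No gRNA and 1 in the All gRNA library, where 44.1% and 44.5% of such genes did. ESR1 and PGR were both in the class with the higher ratio, and by the 4000 bp rule both were open in the No gRNA library only. Neither had a peak at its main start, a narrower measure for which no share over all genes was computed. PGR was near the limit of the class, with 35.0% of genes below its ratio against 58.2% for ESR1.

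Motifs were counted within 100 bp of each summit, on both strands, and the AP-1 pattern TGANTCA allowed any middle base. AP-1 was the most common, in 16 of 47 No gRNA peaks (34%, 20.9 to 49.3%) and 19 of 52 All gRNA peaks (36.5%, 23.6 to 51.0%), against 30.3% and 31.2% of all peaks. ESR1 held 6 of the 16 and 7 of the 19. The CAGGTG E-box was found in 9 No gRNA peaks (19.1%, 9.15 to 33.3%) and 12 All gRNA peaks (23.1%, 12.5 to 36.8%), against 11.6% and 13.1% of all peaks, with 4 and 5 of them in the ERBB3 window.

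The motifs of the luminal factors themselves were as frequent as over all peaks within counting error. GATA matches were found in 12.8% (4.83 to 25.7%) and 11.5% (4.35 to 23.4%) of window peaks, against 9.32% and 9.20% of all peaks. Forkhead matches were found in 2 of 47 No gRNA peaks (4.26%, 0.520 to 14.5%), against 3.71%, and in 0 of 52 All gRNA peaks, which allows a share of up to 5.77% by a limit of 3 counts, against 3.88%. The oestrogen response element, searched as GGTCA and TGACC with any 3 bases between them, was found in 0 of 47 and 0 of 52 peaks, which allows shares of up to 6.38% and 5.77% by the same limit, and in 0.025% and 0.0322% of all peaks. Only exact matches were counted. The printed TFF1 stretch held GGTCAcggTGGCC, which differs from the oestrogen response element pattern in a single letter. With so rare an exact pattern, its absence from the window peaks says little. Each interval or limit included the share over all peaks.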

How the data were processed

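ATAC-seq was compared between 1 No gRNA and 1 All gRNA library of SUM159 cells. The authors used fastp for trimming and bowtie2 for mapping to hg38, discarded mitochondrial, excluded-region and duplicate reads, and ran MACS2 on each library alone with no control. Tool versions are not given in the sources used here. The deposited lists give for each peak the −log10 p, the −log10 q, the ratio of pileup to local background (fold enrichment), a summit offset and a score, which was not used.

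Pileup and background were solved from the deposited fold and −log10 p, and the depth ratio was taken from the lowest backgrounds. The lists fit a 200 bp window, whereas the stated extension was 150 bp, and the depth ratio is the same under both. The code was tested on simulated data. Neighbouring counts are not independent molecules.

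Genes, starts and features came from GENCODE release 44. Python 3.11.15, numpy 2.4.6, scipy 1.17.1, pandas 2.3.3 and pyfaidx 0.9.0.4 were used. All 9 genes are described, with their promoter peaks, the strongest peak in the gene or window, shared peaks past 2-fold and unpartnered peaks with a −log10 q of at least 10. Other values named from the lists, and the comparison by CpG ratio, were chosen after seeing them. The values of 1 gene of the further luminal list are not reported here. The genes and lists were chosen with earlier results of these data known. Alternatives covered −log10 q, list length, window, promoter, overlap, scaling, fold and motif distance.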

Additional observations from a re-analysis of the deposited data

How the results depend on the processing

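Of 261 values recomputed under alternatives, 187 moved little and 74 moved more, and 40 of the 74 were covered lengths of single genes. Of the 261, 0 turned direction, but nearly all are counts, lengths or shares, which have no direction to turn. With windows of 10 kb, No gRNA and All gRNA peaks numbered 30 and 32 over 12717 and 11901 bp, with 23 and 24 shared and 8 found in the All gRNA library only; with 100 kb they numbered 78 and 88 over 33442 and 32715 bp, with 66 and 67 shared and 21 in the All gRNA library only. At a −log10 q of at least 10 there were 27 All gRNA peaks, 24 shared on either side and 3 in the All gRNA library only; with the 50000 strongest peaks there were 32 and 5, and at a −log10 q of at least 5 there were 5 in that library only. The epithelial genes low in claudin-low lines with a No gRNA promoter peak numbered 3 at a −log10 q of at least 10, with the strongest peaks and at canonical starts, and 2 with 1000 bp promoters. With an All gRNA promoter peak they numbered 0 at a −log10 q of at least 10, 1 with the strongest peaks and 7 with 10000 bp promoters. Within 50 bp of the summit, 6.38% of No gRNA peaks held the E-box and 19.2% of All gRNA peaks the AP-1 motif. Peaks past 2-fold became 1 higher (PGR) under median scaling, and 1 lower (the ERBB2 main start) at a −log10 q of at least 5, where its weaker partner is dropped, and against the strongest partner, which was added after seeing the data. At 1.5-fold 2 were lower. The members with a promoter peak numbered 5 to 7 in the No gRNA and 5 to 8 in the All gRNA library; those of ESR1 and PGR in the No gRNA library were lost at 1000 bp, at a −log10 q of at least 10 and with the strongest peaks, that of TFF1 at a −log10 q of at least 5, and with 10000 bp promoters ESR1 and PGR gained All gRNA peaks. No paired analysis was possible because there was 1 library a group. The causes of the remaining shifts were not tested.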

Other observations

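Among the further luminal genes, several others had promoter peaks above the gene medians of 61 and 38 in both libraries. KDM4B, a histone demethylase, had pileups of 207 in the No gRNA and 133 in the All gRNA library. SLC39A6, a zinc transporter, had 134 and 65, and RARA, a retinoic acid receptor, had 125 and 63. IGF1R, the receptor of insulin-like growth factor, had 104 and 40, and NRIP1, a corepressor of nuclear receptors, had 71 and 40. PDZK1 had 27 and 32, which with TFAP2C was higher in the All gRNA library before any scaling for depth. These genes were named after their values were seen, and all their pileups are before scaling for depth.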
